A study of Mus musculus with 12 samples.

Results

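The olfactory bulb was compared with the hypothalamus across a mouse array of long noncoding and messenger RNAs. The comparison took every scan whose tissue label named either region, which gave 6 of the 12 scans of the series: olfactory bulb replicates 1, 2 and 3 and hypothalamus replicates 1, 2 and 3. All came from male Balb/c mice aged 10 weeks, and the labels name no treatment; by the labels, the groups differed in region. The other 6 scans held the hippocampus and the cerebellum, which entered the fit only through the shared estimate of spread and are used below to place the 2 regions. Nothing in the labels ties an array to an animal or says whether animals were pooled, so each p-value measures the spread between these arrays, which may be partly technical.

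The olfactory bulb receives the axons of the sensory neurons of the nose. Its output neurons, the mitral and tufted cells, use glutamate, and its many granule and periglomerular interneurons use GABA and are renewed in the adult by neuroblasts that migrate in from the ventricle wall. The hypothalamus is built instead from small nuclei of neuroendocrine and homeostatic neurons, many of which make a neuropeptide such as oxytocin, vasopressin or orexin at a very high level in few cells. In dissected tissue, fewer cells of a type and less RNA per cell cannot be told apart. The names given by the array design carry no gene in the files used here, so the markers of these cell types were not analysed here and the dissections were not checked against them. Results are therefore given by probe name, and by gene only for the 15 probes that carry a RefSeq accession.

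A level below is the log2 processed signal of a probe minus the 75th percentile of its scan, so that 0 marks a probe as bright as that percentile. On each of the 6 scans, 90.12% to 93.15% of the 60915 probes exceeded background clearly, and no probe was saturated. The olfactory bulb scans were brighter before scaling, with a median signal of 394.1 to 443.2 intensity units against 290.7 to 307.8 in the hypothalamus. The 75th percentile was higher in the olfactory bulb by 0.55, 0.51 and 0.40 on the log2 scale in replicates 1, 2 and 3, and the control spots that mark the corners of the array were higher by 0.63, 0.63 and 0.51. Each region kept 1 position on the slides, so region and slide position cannot be told apart. The 3 olfactory bulb scans differed from each other, over 15195 bright probes, with an SD of 0.4455 to 0.5097, and the hypothalamus scans with an SD of 0.3133 to 0.4127. Copies of a reference probe spread more on olfactory bulb replicate 3 (SD 0.3707) than on the other 5 scans (0.07789 to 0.1848). Precision is limited by the number of arrays, 3 a region. Replicates 1 and 3 of the hippocampus differed from each other with an SD of 0.02777, and those of the cerebellum with 0.02624, less than the spread of probe copies within a scan. Each such pair was counted as 1 sample, so the 3 scans of either of these regions stand for 2 arrays.

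Many transcripts were regional. Of 55290 probes tested, those well above background on each scan of at least 1 of the regions, 4355 (7.88%) differed at least 2-fold at an adjusted p under 0.05 (limma, Benjamini-Hochberg), which is what "called" means below. Of these, 2347 (4.24% of the probes tested) were higher in the olfactory bulb and 2008 (3.63%) were higher in the hypothalamus. The median difference over all probes tested was -0.02 on the log2 scale. Without olfactory bulb replicate 1 the balance turned, with 2169 probes higher in the olfactory bulb and 2322 in the hypothalamus. At an adjusted p under 0.05 and any size of difference, 13362 probes (24.2%) passed, and 23607 did so with the replicate number as a block. The scans of the 2 regions did not overlap for 21542 probes (39.0%).

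Called differences reached further on the hypothalamus side. A difference of at least 4-fold was called for 667 probes higher in the olfactory bulb and 550 higher in the hypothalamus, and one of at least 16-fold for 79 and 74. At 32-fold and over the order was the other way, with 23 and 31 probes. At 64-fold and over, 6 probes were higher in the olfactory bulb and 20 in the hypothalamus. These counts include probes at background in the lower region, where a fold is only a lower bound, as defined below. ASMM10P011241 and ASMM10P014468, both among the 6, had bounds of 54.52-fold and 52.3-fold. On the hypothalamus side, ASMM10P043062, ASMM10P050403 and ASMM10P017537 had bounds of 207.6-fold, 127.1-fold and 93.46-fold.

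**Figure D1:**
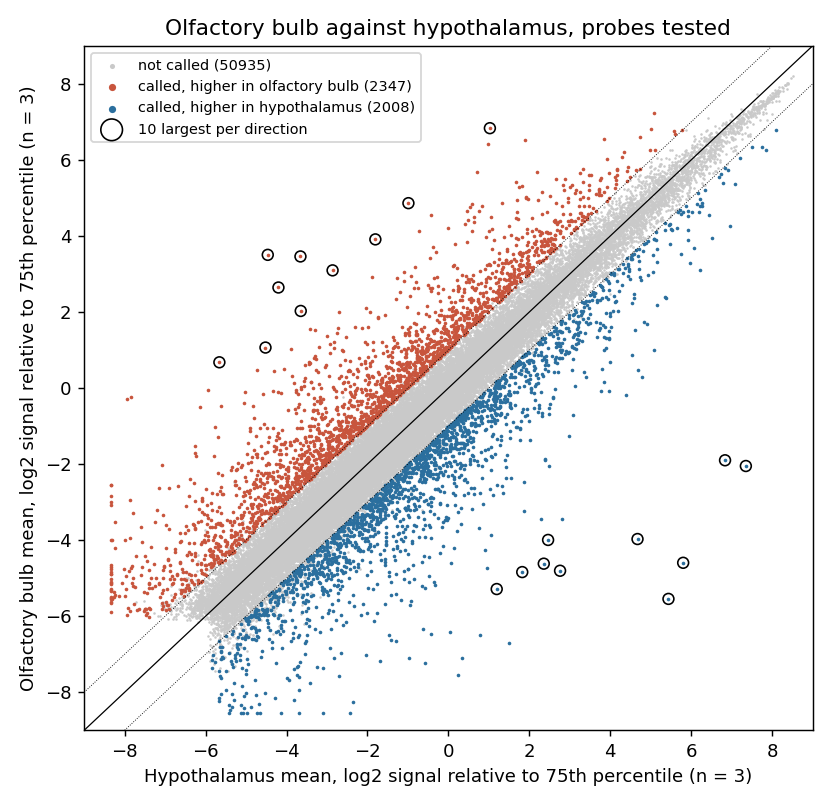
Mean level of each of 55290 probes in the olfactory bulb (vertical axis) against the hypothalamus (horizontal axis), both as log2 signal over the scan's 75th percentile, n = 3 scans each. The solid line marks equal levels and the dotted lines 2-fold differences; 2347 called probes (red) are higher in the olfactory bulb and 2008 (blue) in the hypothalamus, and rings mark the 10 largest differences in each direction among probes well above background on all 6 scans.

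Without a test, probes with a 2-fold difference of means were evenly split, 2480 higher in the olfactory bulb and 2488 higher in the hypothalamus. The test then passed 94.6% of the first and 80.7% of the second. The spread of the olfactory bulb scans differed between these sets, with a median SD of 0.1216 where that region was the higher one and 0.1963 where it was the lower one. The hypothalamus spread less unevenly, with median SDs of 0.1385 and 0.1243. Within scan times, which hold 1 scan of each region with the same replicate number, 2-fold differences leaned the other way. In replicate 1, the olfactory bulb exceeded the hypothalamus 2-fold for 3268 probes and was exceeded 2-fold for 3806. Replicate 2 gave 2525 and 2937 probes, and replicate 3 gave 2534 and 4081. Of the called probes, 2022 higher in the olfactory bulb and 1656 higher in the hypothalamus were at least 2-fold apart in each of the 3 scan times.

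Calls were spread over the whole range of brightness. The probes tested were divided by mean level into 5 equal bins. In the dimmest bin, 463 were higher in the olfactory bulb and 461 in the hypothalamus, 8.36% of 11058 in all. The brightest bin had 610 and 387, 9.02% in all. The share higher in the olfactory bulb was thus 4.19% in the dimmest and 5.52% in the brightest bin, while the share higher in the hypothalamus was 4.17% and 3.5%. The median standard error of a difference was 0.24 in the dimmest and 0.12 in the brightest bin.

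The largest differences on the olfactory bulb side were 48.03-fold to 250.5-fold. These 10 probes were chosen by size among called probes well above background on all 6 scans. ASMM10P033688 stood at 3.61, 3.42 and 3.48 in olfactory bulb replicates 1, 2 and 3 and at -4.32, -4.70 and -4.37 in the hypothalamus. This probe, the widest apart on this side, differed by 7.97 in log2 level, with an SE of 0.175 (limma adjusted p 1.37e-07). In the hippocampus it stood at -4.35, and it was well above background on no cerebellum scan.

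ASMM10P010906 stood at 6.87, 6.77 and 6.87 in the olfactory bulb and 1.23, 0.92 and 0.93 in the hypothalamus, a difference of 5.81 (SE 0.138, adjusted p 1.67e-07). Its hypothalamus level still lay above the 75th percentile of the scans, so this transcript was measured well in both regions. ASMM10P012846 stood at 4.96, 4.76 and 4.87 against -0.91, -1.08 and -0.98, and in the hippocampus at 3.13, nearer to the olfactory bulb. ASMM10P027469 stood at 4.00, 3.80 and 3.94 against -1.78, -1.82 and -1.82. Both other regions were near the hypothalamus level of this last probe, with -1.59 in the hippocampus and -1.43 in the cerebellum.

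A pair of probes with consecutive design numbers, ASMM10P049345 and ASMM10P049346, stood among the 10, and the number before them, ASMM10P049344, was called too with a difference of 4.98 (adjusted p 0.000161). ASMM10P049346 stood at 3.57, 3.40 and 3.42 in the olfactory bulb against -3.55, -3.71 and -3.70 in the hypothalamus. ASMM10P049345 stood at 2.66, 2.56 and 2.72 against -3.76, -4.95 and -3.88, with hypothalamus replicate 2 the lowest. The number after them, ASMM10P049347, differed by 0.30 and did not pass (adjusted p 0.812). Both of the pair had an intermediate level in the hippocampus, -0.19 and -1.20, and levels of -3.83 and -4.03 in the cerebellum.

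The other 4 of the 10 had olfactory bulb means between 0.68 and 3.10. ASMM10P031544 differed by 5.96, ASMM10P047495 by 5.68 and ASMM10P030696 by 5.59. ASMM10P041204 stood at 0.68, 0.64 and 0.72 in the olfactory bulb and at -5.74, -5.22 and -6.02 in the hypothalamus. Its difference was 6.34, or 4.55 under normexp background correction. Under normexp the 10 differences ran from 4.43 to 6.82, and 6 of them moved by over 1.5 times on the linear scale, each still called.

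Differences on the hypothalamus side were larger, 88.01-fold to 2027-fold in the 10 chosen by the same rule. ASMM10P044801 stood at 5.42, 5.42 and 5.48 in hypothalamus replicates 1, 2 and 3 and at -5.42, -5.60 and -5.62 in the olfactory bulb, the widest difference of the comparison at 10.99 (SE 0.113, adjusted p 1.29e-08), or 9.41 under normexp. In the hippocampus it stood at -5.61, and on no cerebellum scan was it well above background. ASMM10P021540 stood at 6.07, 5.68 and 5.66 in the hypothalamus against -4.33, -4.62 and -4.84 in the olfactory bulb, a difference of 10.40 (SE 0.189, adjusted p 7.3e-08), or 9.40 under normexp. ASMM10P032896 stood at 4.69, 4.62 and 4.71 against -3.84, -4.12 and -3.96. Each of these probes had levels between -8.51 and -3.26 in the hippocampus and the cerebellum, far from the hypothalamus.

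Some of these probes varied between olfactory bulb scans far more than between hypothalamus scans. ASMM10P047574 stood at 7.39, 7.30 and 7.36 in the hypothalamus and at -1.91, -1.57 and -2.66 in the olfactory bulb. ASMM10P023789 stood at 6.98, 6.73 and 6.80 in the hypothalamus and at -0.94, -2.97 and -1.79 in the olfactory bulb, where replicate 1 was the highest and replicate 2 the lowest. The hypothalamus SD of ASMM10P023789 was 0.132 and its olfactory bulb SD 1.02 (n = 3), so its difference of 8.74 has an SE of 0.579 (adjusted p 2e-05).

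The remaining 5 had hypothalamus means of 1.20 to 2.76. ASMM10P018112 stood at 2.82, 2.71 and 2.76 in the hypothalamus against -4.67, -4.80 and -4.94, with 1.22 in the cerebellum, nearer to the hypothalamus. Its neighbours by number parted: ASMM10P018113 was higher in the hypothalamus by 2.83 (adjusted p 2.36e-06), whereas ASMM10P018111 was higher in the olfactory bulb by 1.08 (adjusted p 0.0279). ASMM10P051190 stood at 1.24, 1.12 and 1.22 against -5.03, -5.71 and -5.12, with -0.58 in the hippocampus. ASMM10P034165 differed by 6.46, ASMM10P047115 by 6.98 and ASMM10P030418 by 6.67, and of these the last had the most uneven olfactory bulb scans, at -5.21, -5.30 and -4.01. Under normexp the 10 differences ran from 5.095 to 9.41, 8 of them moved by over 1.5 times on the linear scale, and each was still called.

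**Figure D2:**
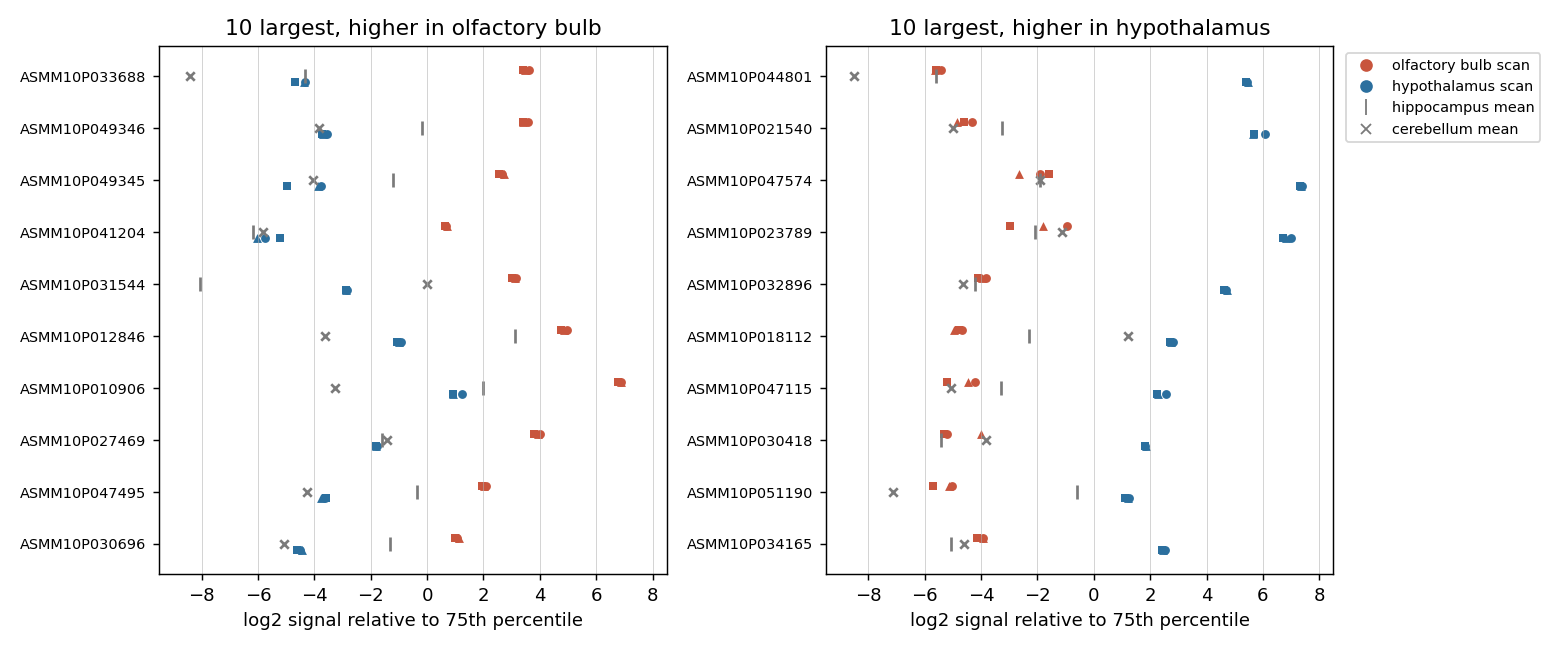
Levels of the 10 largest differences in each direction, as log2 signal over the scan's 75th percentile, with 1 point per scan (circle, square and triangle for replicates 1, 2 and 3) and the means of the hippocampus (bar) and the cerebellum (cross). The 20 probes were chosen by size of difference, and no olfactory bulb scan overlaps a hypothalamus scan in any of them. Over all probes tested, the scans of the 2 regions did not overlap for 39.0%. ASMM10P023789 has the widest olfactory bulb spread of the 20, from -2.97 to -0.94.

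Transcripts measured in 1 region alone were more often those of the olfactory bulb. There, 243 probes exceeded background clearly on each of the 3 scans and on 0 hypothalamus scans, against 116 the other way round. A fold is then only a lower bound, the mean of the bright region over the lowest signal that was well above background on each scan of the dim one. The largest bounds lay on the hypothalamus side. ASMM10P043062 stood at 1.48, 1.45 and 1.55 in the hypothalamus, at least 207.6-fold above the olfactory bulb, and it exceeded background clearly on every scan of the hippocampus and the cerebellum. The olfactory bulb was thus the 1 region of the series in which its signal fell to background.

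ASMM10P050403 stood at 0.65, 0.77 and 0.92 in the hypothalamus, at least 127.1-fold higher, and ASMM10P017537 at 0.42, 0.28 and 0.32, at least 93.46-fold higher. Both were well above background on 0 scans of the hippocampus and the cerebellum. In the olfactory bulb, ASMM10P011241 stood at -0.19, -0.33 and -0.18, at least 54.52-fold above the hypothalamus, and ASMM10P014468 at -0.14, -0.39 and -0.36, at least 52.3-fold above it, also with 0 such scans elsewhere. ASMM10P051337 stood at -0.43, -0.55 and -0.55, at least 45-fold higher, and was well above background on the hippocampus scans. Most such differences had small bounds: the median bound was 1.558-fold for the 243 and 2.152-fold for the 116. The bound exceeded 2-fold for 74 of the 243 and for 66 of the 116. The fit called 157 of the 243 and 102 of the 116, so 86 and 14 were not called. Over all probes tested, 7.88% were called. These probes were chosen as high in 1 region and at background in the other, so calls among them were largely built in. Of the 243, 95 were well above background on no scan of the hippocampus or cerebellum, and of the 116, 44 were so. The olfactory bulb scans were the brighter ones, as given above, and the part of brightness in these counts was not tested.

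The other regions show which of the pair stood apart. For each called probe, the hippocampus and the cerebellum were placed on the side of the olfactory bulb or of the hypothalamus by the midpoint of these regions' means. For 1376 probes (31.6% of the called) the olfactory bulb was alone on its side. For 1361 (31.3%) the hypothalamus was alone, and the remaining 1618 had another region with each. Neither the hippocampus nor the cerebellum was on the higher side for 1115 of the 2347 probes higher in the olfactory bulb and for 1012 of the 2008 higher in the hypothalamus. The hippocampus was alone in joining the higher region for 405 olfactory bulb probes (17.3%) and 484 hypothalamus probes (24.1%), whereas the cerebellum was so for 478 (20.4%) and 251 (12.5%).

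Larger differences more often set the higher region apart from the other 3. In the olfactory bulb direction, the share with neither other region on the higher side was 43% at 2-fold to 4-fold, 57.1% at 4-fold to 16-fold and 69.9% at 16-fold to 64-fold. In the hypothalamus direction it was 48.1%, 55.5% and 61.1%. At 64-fold and over, all 6 probes in the olfactory bulb direction and 13 of 20 in the hypothalamus direction had neither other region on the higher side. These sizes include probes at background in the lower region, where the fold is only a lower bound. A region on the lower side need not be low: ASMM10P049346, 1 of the 6, stood at -0.19 in the hippocampus against -3.66 in the hypothalamus. These shares describe probes chosen by their values in the 2 regions and carry no test.

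**Figure D3:**
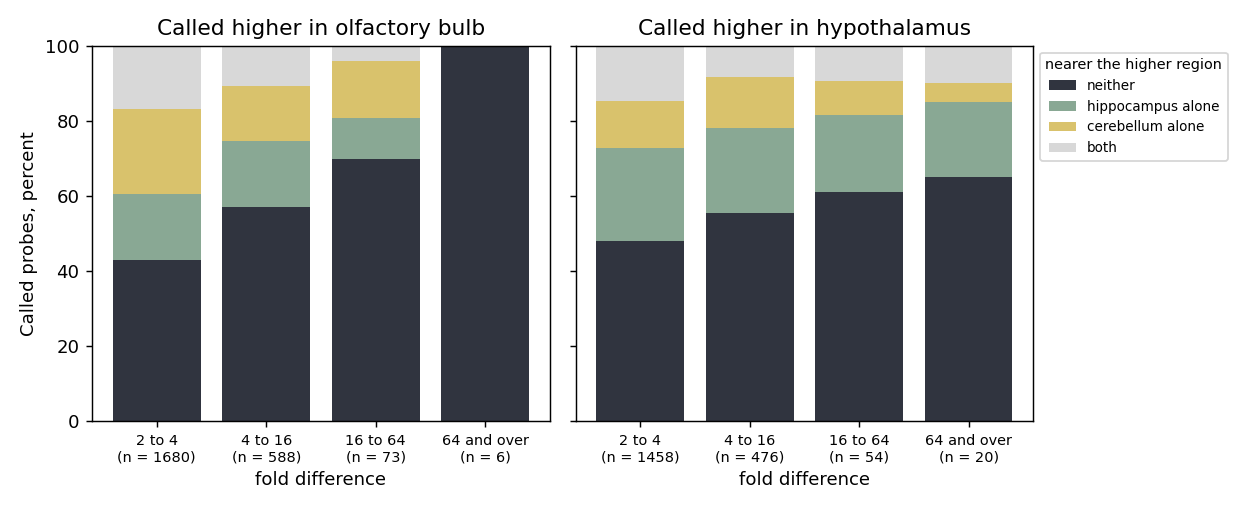
Called probes by size of difference (horizontal axis, fold, with the number of probes) and, as percent of them (vertical axis), whether the hippocampus and the cerebellum lay nearer to the higher region. The dark share, with neither region nearer, grows from 43% to 100% on the olfactory bulb side (left) and from 48.1% to 65% on the hypothalamus side (right). Sizes include probes at background in the lower region, where the fold is only a lower bound.

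Probes with neighbouring design numbers tended to move together, and the files do not say what the numbering follows. Across 48985 pairs of ASMM10P probes 1 number apart, the differences correlated at r = 0.146, against 0.0117 over 48530 pairs 100 numbers apart; probes are not independent replicates. Of 3928 called probes whose next number was tested, 581 (14.8%) had that neighbour called in the same direction and 112 (2.85%) in the opposite one. At 100 numbers apart, these shares were 4.48% and 3.47%. Runs of 3 or more consecutive numbers called in 1 direction numbered 91, of which 51 were higher in the olfactory bulb.

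The longest run held 9 probes, ASMM10P015298 to ASMM10P015306, all higher in the hypothalamus by 1.20 to 2.42 on the log2 scale. Its probes differed widely in brightness, with hypothalamus means from -0.54 to 3.76, while the differences stayed within that range. In the olfactory bulb direction, the 6 probes from ASMM10P012100 to ASMM10P012105 were higher by 1.31 to 3.02. The 5 from ASMM10P021310 to ASMM10P021314 were higher by 2.21 to 4.99, with olfactory bulb means of 0.33 to 5.69 and hypothalamus means of -4.07 to 0.70. Another 4, ASMM10P030400 to ASMM10P030403, had nearly equal differences, 2.45 to 2.62, at olfactory bulb means of 2.83 to 5.77. These runs were picked after their values were seen.

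Reference genes, those of the 15 probes that carry a RefSeq accession, differed by -0.76 to 1.38 on the log2 scale. Of the 15, 3 passed at an adjusted p under 0.05, against 24.2% of all probes tested, and 1 of them was called at 2-fold (6.67%, against 7.88%). Both shares were near those over all probes. With the replicate number as a block, 13 of the 15 passed, against 42.7% of all probes. Each of these probes was printed 20 times per array, so its level is an average over copies.

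Among the metabolic enzymes, Ldhal6b, a lactate dehydrogenase relative, stood at -1.25, -1.06 and -1.25 in the olfactory bulb and at -2.69, -2.31 and -2.70 in the hypothalamus. It was 2.602-fold higher in the olfactory bulb (log2 1.38, SE 0.178, adjusted p 0.000782), with -2.49 in the hippocampus and -2.50 in the cerebellum, so the olfactory bulb alone was high. Hprt, which recycles purine bases into nucleotides, went the other way. It stood at 5.97, 5.87 and 5.995 in the olfactory bulb and at 6.76, 6.65 and 6.72 in the hypothalamus, 1.696-fold higher in the hypothalamus (log2 0.76, SE 0.0882, adjusted p 0.000434). The hippocampus (6.10) and the cerebellum (5.88) were near the olfactory bulb, so here the hypothalamus stood alone.

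The other enzymes did not pass. Gapdh, of glycolysis, stood at 6.87, 6.71 and 6.82 against 7.14, 6.94 and 7.00, a difference of -0.22 (95% interval -0.46 to 0.01, adjusted p 0.173, or 0.00491 with the replicate block). Its scans did not overlap between the regions, and under quantile normalization the difference was -0.0055. G6pd2, a relative of the first enzyme of the pentose phosphate pathway, differed by -0.16 (adjusted p 0.195, or 0.0309 with the block). Gusb, a lysosomal enzyme, differed by 0.11 (adjusted p 0.514, or 0.0499 with the block), and Gk, glycerol kinase, by -0.14 with an interval of -0.62 to 0.34. The Gk scans ran from 1.32 to 2.02 within the hypothalamus alone, and without hypothalamus replicate 3 the difference was 0.0091.

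Of the cytoskeletal genes, Tuba1b, an alpha-tubulin from which microtubules are built, stood at 7.59, 7.46 and 7.60 in the olfactory bulb and at 8.16, 8.03 and 8.11 in the hypothalamus. It was 1.464-fold higher in the hypothalamus (adjusted p 0.00282). Under quantile normalization its difference shrank from -0.55 to -0.19 and did not pass (adjusted p 0.222). Actb, the beta-actin of the microfilaments, differed by -0.22 with an interval of -0.43 to -0.02 (adjusted p 0.122, or 0.00472 with the block).

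None of the genes of protein synthesis and folding passed without the block. Rpl13a, a ribosomal protein, differed by -0.16, Ppia, the prolyl isomerase cyclophilin A, by -0.13, and Hsp90ab1, a chaperone, by -0.24, with adjusted p of 0.549, 0.318 and 0.154. With the block these were 0.0171, 0.0382 and 0.00265. For Ppia the direction depended on the scaling, with 0.19 under quantile normalization (adjusted p 0.111). In the nucleus, Tbp, which binds the TATA box of promoters, stood at 0.68, 0.44 and 0.58 against 0.30, 0.06 and 0.20, a difference of 0.38 (adjusted p 0.0593, or 0.000419 with the block). Nono, an RNA-binding protein of paraspeckles, differed by 0.14 (adjusted p 0.367, or 0.0249 with the block).

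At the cell surface, B2m, which pairs with the heavy chain of class I antigen-presenting molecules, stood at 3.35, 3.21 and 3.28 in the olfactory bulb and at 3.12, 2.99 and 2.99 in the hypothalamus. It was higher by 0.25 on the log2 scale, with adjusted p of 0.0765, or 0.00248 with the block. Tfrc, the transferrin receptor through which cells take up iron, differed by 0.05 with an interval of -0.15 to 0.25. Several of these genes have near-identical relatives or processed copies, among them Tuba1b and Actb, Rpl13a and Ppia, and Gapdh, and their probes may bind both.

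**Figure D4:**
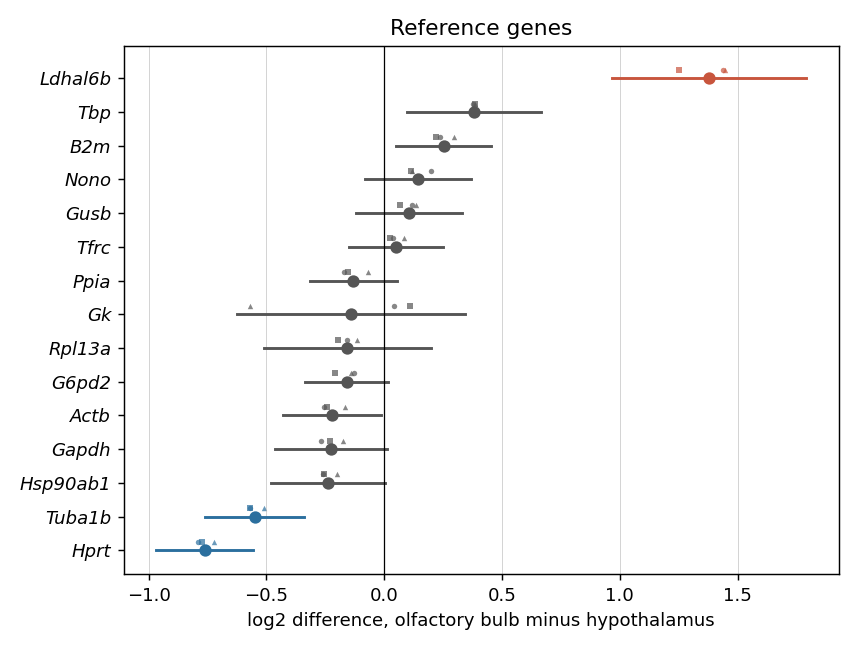
Difference of each of the 15 reference genes, olfactory bulb minus hypothalamus, on the log2 scale, with its unadjusted 95% interval (bar) and the difference within each of the 3 scan times (small circle, square and triangle). Ldhal6b (red, 1.38) and Hprt and Tuba1b (blue, -0.76 and -0.55) passed at an adjusted p under 0.05, and the others (grey) lie between -0.24 and 0.38.

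Probes named for long intergenic noncoding RNAs, which are transcribed between genes and often restricted to few tissues, were seldom called. The other names of the array design carry no gene, so whether they cover more such RNAs was not analysed. Of 1836 probes with lincRNA names, 1324 were tested and 20 (1.51%) were called, against 7.88% over all probes tested. Of the 20, 17 were higher in the olfactory bulb (1.28% of those tested) and 3 in the hypothalamus (0.227%). Over all probes tested these shares were 4.24% and 3.63%. Only 11 of the 17 and 2 of the 3 were well above background on all 6 scans. As a class these probes gave low signals, with a median level of -3.09 against -1.59 over all probes, and their median standard error was 0.25 against 0.16. Within the 5 bins of mean level the share called was 1.92% of 520 lincRNA probes in the dimmest and 4.92% of 61 in the brightest, below the 8.49% and 8.99% of ASMM10P probes there. The count of 20 was sensitive to 1 array: without olfactory bulb replicate 1 it was 33.

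By name, 9 of the 20 were among 774 tested probes with human lincRNA names, 10 among 475 with mouse names and 1 among 75 named for mm9 lincRNA exons. Among the largest, humanlincRNA1535-_P1 stood at 0.42, 0.17 and 0.25 in the olfactory bulb against -2.45, -2.51 and -2.63 in the hypothalamus (log2 difference 2.81, SE 0.114, adjusted p 1.58e-06), and the hippocampus (-1.74) and the cerebellum (-1.97) were near the hypothalamus. Under normexp its difference was 2.46. The probe mouselincRNA0100-_P1 stood at -2.70, -2.96 and -2.66 against -5.58, -5.82 and -5.79, a difference of 2.95 (adjusted p 1.35e-06), or 1.22 under normexp. For mouselincRNA0675-_P1, at -5.26, -5.74 and -5.50 in the olfactory bulb, the hypothalamus was not well above background on any scan. The olfactory bulb level exceeded the bound there at least 1.417-fold, and under normexp the difference was 0.30 (adjusted p 0.0729).

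All 3 lincRNA probes called higher in the hypothalamus are given. mouselincRNA1559+_P1 stood at -2.66, -2.83 and -2.71 in the hypothalamus against -5.30, -6.41 and -5.01 (log2 difference -2.84, adjusted p 0.00632, or -1.69 under normexp). Of its 3 olfactory bulb scans, 2 were well above background. humanlincRNA0635-_P1 stood at -2.93, -3.36 and -3.29 against -4.40, -4.24 and -4.14, and mouselincRNA0188-_P1 at -2.85, -2.34 and -2.13 against -3.87, -3.21 and -3.25. The last 2 differed by 1.07 and 1.00, at the 2-fold limit. Of 18 alternatives, 3 took humanlincRNA0635-_P1 below it: normexp (-0.79), and leaving out olfactory bulb replicate 1 (-0.9959) or hypothalamus replicate 1 (-0.93). The call of mouselincRNA0188-_P1 was lost under 7 of 18, namely quantile normalization (-0.97), the median of each scan (-0.99), the authors' deposited table (-0.98), normexp (-0.84), and without olfactory bulb replicate 1 (-0.79), hypothalamus replicate 2 (-0.95) or hypothalamus replicate 3 (-0.85). The 1 called mm9 exon probe, MM9LINCRNAEXON11382-_P1, was higher in the olfactory bulb by 1.101 (adjusted p 0.0497), and its scans overlapped between the regions. Its call was lost under 12 of 18 alternatives, with differences of 0.83 to 1.40 and limma adjusted p of up to 0.152 over the 18.

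Probes named ASMM10UP, a class of the array design that the files do not describe, were called most often. Of 755 tested, 117 (15.5%) were called, 91 of them higher in the olfactory bulb (12.1% of those tested) and 26 in the hypothalamus (3.44%), against 4.24% and 3.63% over all probes. The share was 13.7% to 18.8% in each of the 5 bins, where ASMM10P probes had 6.75% to 8.99%. Over the class as a whole the median difference was 0.11 on the log2 scale, against -0.02 over all probes. At 8-fold and over, 12 ASMM10UP probes were higher in the olfactory bulb and 0 in the hypothalamus.

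Those named here were the 3 largest in each direction, chosen after their values were seen. ASMM10UP695 stood at 4.79, 4.58 and 4.62 in the olfactory bulb against 0.57, 0.44 and 0.37 in the hypothalamus (log2 difference 4.20, SE 0.112, adjusted p 2.57e-07). Consecutive numbers again ran together: ASMM10UP183 differed by 4.21 and ASMM10UP184 by 4.13, and both were low in the hippocampus (-4.07 and -5.25) and the cerebellum (-2.56 and -3.12). Higher in the hypothalamus were ASMM10UP837, at 5.46, 5.25 and 5.34 against 2.53, 2.30 and 2.35 (adjusted p 1.24e-06), and the consecutive ASMM10UP324 and ASMM10UP323, by 2.88 and 2.38. Of 106 called ASMM10UP probes whose next number was tested, 45 (42.5%) had that neighbour called in the same direction. Over the class as a whole, 12.1% were called higher in the olfactory bulb and 3.44% in the hypothalamus. Pairs further apart were not analysed for this class.

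**Figure D5:**
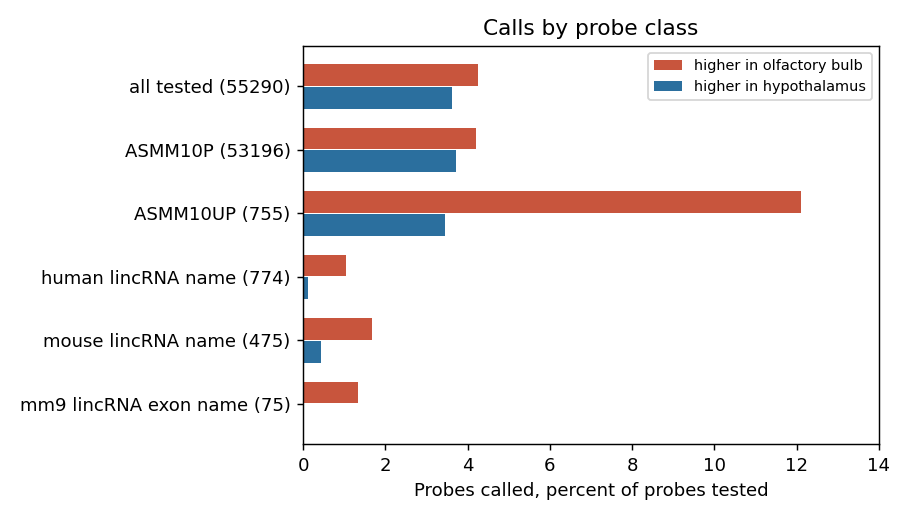
Share of probes called in each direction (horizontal axis, percent of probes tested) by probe class, with the number tested in brackets. ASMM10UP probes reach 12.1% in the olfactory bulb direction, against 4.24% of all probes tested, and the 3 lincRNA classes lie at 1.68% or below in both directions.

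Signal at the 3′ end of Pgk1, an enzyme of glycolysis, exceeded that at its 5′ end by more in the olfactory bulb than in the hypothalamus in every scan time, by 0.18, 0.14 and 0.17 on the log2 scale in replicates 1, 2 and 3. For Gapdh the same measure was higher in the olfactory bulb by 0.03, 0.08 and 0.06. The gap itself was far wider for Pgk1, 7.23 to 7.48 in the olfactory bulb and 7.04 to 7.31 in the hypothalamus. For Gapdh it was 1.14 to 1.30 and 1.06 to 1.27. No test of these values was run, and their part in the differences above was not tested.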

How the data were processed

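Per the labels' protocols, RNA of each dissected region was depleted of ribosomal RNA, amplified by random priming and labelled with Cy3. Per the submitters' processing notes and the file headers, spots were read with Agilent Feature Extraction 11.0.1.1, and the deposited scanner files hold each spot's intensity, with the processed signal already background-subtracted, and other values, marks of 0 or 1 that tell whether a spot was an outlier, saturated or clearly above background. The authors also deposited a log2 value table of 60804 probes, without the reference probes, whose columns had medians of 8.483 to 8.486. The sources used here do not give the steps behind it.

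Here, outlier spots (11 to 38 on these 6 scans) were left out, copies averaged and levels scaled to the 75th percentile of each scan. Scans of the hippocampus and of the cerebellum that differed by less than the spread of probe copies were averaged (replicates 1 and 3 of each), leaving 10 arrays and 6 residual degrees of freedom. R 4.3.3 and limma 3.58.1 fitted 1 mean per region, with Benjamini-Hochberg adjustment over the 55290 probes tested. Same-numbered scans of the 2 regions share a scan time, and their deviations from the region means correlated at r 0.499, 0.709 and 0.516 over 55266 probes. The numbers were taken as pairing them within scan times and in the replicate block. The main fit held no block, so calls and adjusted p given without the block are unpaired. The code was tested on simulated data. Probes, classes and lists were chosen with earlier results of these data known. Named are the 10 largest called probes per direction among those well above background on all 6 scans, the 3 largest bounds and the 3 largest lincRNA-named calls per direction, and all reference genes. Gene-list tests were not run, since no table used here names the other probes.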

Additional observations from a re-analysis of the deposited data

Results flagged for a closer look

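Signal was present outside the measured probes. The array has 15 probes with negative names, and every copy of 2 of them exceeded background clearly on all 6 scans. MM9NEGATIVE016 had processed signals of 78.8 to 82.4 intensity units in the olfactory bulb and 51 to 58.9 in the hypothalamus. MM9NEGATIVE017 had 137 to 138 and 92.2 to 101. These signals are unscaled, and the olfactory bulb scans were the brighter ones. Their 75th percentiles were 1491 to 1617 intensity units, against 1108 to 1126 in the hypothalamus.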

How the results depend on the processing

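The counts of called probes, 4355 in all, 2347 higher in the olfactory bulb and 2008 higher in the hypothalamus, stayed within 1.5 times under every alternative run; the total was lowest under normexp background correction, at 3125 with 1586 and 1539, where 3090 of the called probes remained. Leaving out 1 scan in turn gave 4164 to 4491 in all, 2169 to 2407 higher in the olfactory bulb and 1806 to 2322 higher in the hypothalamus. The replicate block gave 4483, of which 4335 were among the 4355, and the 2 regions alone with the block gave 4430. The 20 lincRNA-named calls became 8 under normexp, 13 among probes well above background on all 6 scans, and 16 to 33 with 1 scan left out. The ASMM10UP calls fell from 117 to 71 under normexp. The 3 reference genes past the threshold became 5 with the median of each scan, 5 under normexp, 5 with all 12 scans counted, 13 with the replicate block and 8 with the block and 2 regions alone. The count of probes measured in 1 region only, 359, became 670 when 2 of 3 scans sufficed. Ppia turned to 0.19 under quantile normalization, and Gk ranged from -0.3373 to 0.0091 with 1 scan left out, turning without hypothalamus replicate 3. The 20 largest differences kept direction and call in all 360 values under the alternatives. They were chosen by size, far over the 2-fold limit, so this says little about smaller differences. The cause of these changes was not tested. Signal over background leaves only a lower bound for the 243 and 116 probes at background in 1 region.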
